A study of Mus musculus with 8 samples.

Results

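The small leucine-rich proteoglycans and dermatopontin are a set of secreted matrix proteins, and 9 of their genes were read in RNA-seq of whole mouse tumors: Dcn, Lum, Ogn, Fmod, Bgn, Aspn, Prelp, Omd and Dpt. They were chosen by gene symbol, and all 9 were found among the 25766 entries of the deposited table. The tumors grew under the skin of female mice, given as C57BL/6J in one label and as C57BL/5J in another, after injection of MC38-OVA, cells of a colon adenocarcinoma of the mouse to which the model antigen ovalbumin was added. Of the 8 tumors, 4 came from cells of the genotype shXBP1, which carry a hairpin against the transcription factor Xbp1, and 4 from cells of the genotype shNT. The hairpin was thus in the injected cells, and the labels name no change in the host mice. Neither the age of the mice, the time of tumor growth nor whether a hairpin line was a clone is stated in the labels. The tumors carry numbers, but it is not stated that each grew in a separate mouse, and the p-values reflect the spread among these 8 samples.

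Small leucine-rich proteoglycans wrap around collagen fibrils through a curved leucine-rich domain, and they set how thick the fibrils grow and how they are spaced. Many carry chains of chondroitin, dermatan or keratan sulfate, and several also bind growth factors of the TGF-beta family or receptors on nearby cells. Dermatopontin has no leucine-rich repeats but binds decorin and collagen in the same matrix. In tumors these proteins are known mainly as products of fibroblasts and other stromal cells.

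In shXBP1 tumors 6 of the 9 genes rose, 1 fell and 2 did not pass the test. Ogn and Dpt were more than 10-fold higher, Omd, Aspn and Dcn between 3.41-fold and 6.06-fold higher, and Lum 2.35-fold higher. Fmod fell, at counts close to the limit of detection. Bgn and Prelp did not pass the threshold, an adjusted p of 0.05 in edgeR's quasi-likelihood test with Benjamini-Hochberg adjustment over 14907 genes. Among all genes tested 30.0% passed, 16.9% higher and 13.1% lower, and 7.63% were both called higher and at least 2-fold higher. The groups did not overlap for 5 of the genes that rose and for Fmod. Among all genes tested 30.2% had no overlap, 16.5% with shXBP1 tumors higher and 13.6% with them lower. The median log2 fold change, shXBP1 over shNT, was 1.77 over the 9 genes and -0.01 over all genes.

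The libraries held between 29070605 and 36012997 counts. Xbp1 itself stood at 77.2, 75.94, 73.68 and 56.61 CPM (counts corrected for the size and composition of each library) in shXBP1 tumors 1 to 4, against 97.3, 96.01, 102.5 and 109.1 CPM in shNT tumors 1 to 4. It fell by 0.51 on the log2 scale (SE 0.10, edgeR adjusted p = 0.00255), and the groups did not overlap. On the first principal component, which held 52.1% of the variance, shXBP1 tumor 4 lay at -16.2, apart from the other shXBP1 tumors at -48.66 to -43.07 and from the shNT tumors at 28.1 to 51.97. Without shXBP1 tumor 4, 5 of the 9 genes were called higher and 1 lower, the lost call being that of Lum. In this whole-tumor RNA, fewer cells of a type and less RNA per cell cannot be told apart.

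The windows around the starts of 5 genes are shown because 3 of them, Aspn, Omd and Ogn, are neighbours on chromosome 13 that rose together, Dpt is a distant gene with a change close to that of Ogn in size, and Bgn is a gene that did not pass the test. Each window runs 5′ to 3′ on the gene's own strand, from 250 bases before to 50 bases after the start that RefSeq gives on GRCm38.p6. RefSeq windows were matched for 7 of the 9 genes. Capitals mark matches, on either strand, to any of 4 motifs: TATAAA, the TATA box; TGACGTG, the core of the unfolded protein response element that XBP1 binds; CCACG, a piece of the endoplasmic reticulum stress element; and TGANTCA, the AP-1 motif.
Aspn, chr13:49544193-49544492, plus strand: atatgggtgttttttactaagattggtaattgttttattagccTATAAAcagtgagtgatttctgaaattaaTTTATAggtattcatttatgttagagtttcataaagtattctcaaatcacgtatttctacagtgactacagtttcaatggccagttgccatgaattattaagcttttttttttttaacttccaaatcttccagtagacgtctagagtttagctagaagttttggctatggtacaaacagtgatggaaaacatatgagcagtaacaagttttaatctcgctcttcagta
Omd, chr13:49582212-49582511, plus strand: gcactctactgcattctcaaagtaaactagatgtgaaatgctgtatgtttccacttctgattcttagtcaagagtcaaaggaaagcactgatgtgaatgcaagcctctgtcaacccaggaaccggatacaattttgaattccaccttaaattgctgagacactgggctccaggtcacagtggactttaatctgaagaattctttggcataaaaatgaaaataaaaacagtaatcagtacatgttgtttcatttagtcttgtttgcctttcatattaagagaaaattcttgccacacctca
Ogn, chr13:49607765-49608064, plus strand: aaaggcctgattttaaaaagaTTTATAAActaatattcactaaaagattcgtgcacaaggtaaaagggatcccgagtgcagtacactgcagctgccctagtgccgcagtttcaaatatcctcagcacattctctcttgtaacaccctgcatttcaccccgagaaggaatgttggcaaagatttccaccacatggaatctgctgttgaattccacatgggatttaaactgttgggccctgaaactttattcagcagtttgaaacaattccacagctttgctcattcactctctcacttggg
Dpt, chr1:164796413-164796712, plus strand: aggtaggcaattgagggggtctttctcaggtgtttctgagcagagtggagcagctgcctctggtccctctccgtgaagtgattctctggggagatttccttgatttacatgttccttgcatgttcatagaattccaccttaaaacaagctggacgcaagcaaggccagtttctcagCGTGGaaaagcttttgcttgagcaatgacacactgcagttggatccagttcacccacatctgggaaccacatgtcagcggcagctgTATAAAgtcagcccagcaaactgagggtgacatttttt
Bgn, chrX:73483351-73483650, plus strand: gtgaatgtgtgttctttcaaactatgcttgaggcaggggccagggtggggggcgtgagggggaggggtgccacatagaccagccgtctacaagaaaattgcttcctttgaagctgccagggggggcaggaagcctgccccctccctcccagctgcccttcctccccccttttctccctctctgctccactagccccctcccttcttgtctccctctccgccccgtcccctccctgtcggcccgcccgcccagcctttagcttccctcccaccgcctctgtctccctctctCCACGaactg
Aspn held TATAAA at -207 on the gene's strand and at -178 on the other, with the base at the start counted as 1. In Ogn the motif occurred once on each strand, at -229 and -227, and the matches overlapped. Dpt held TATAAA at 13, which is after the start, and CCACG on the other strand at -74, and Bgn held CCACG at 41. The capitals mark matching letters only, and whether any TATAAA match works as a TATA box was not tested. The window of Omd held none of the 4 motifs, nor did those of Prelp and Fmod. TGACGTG and TGANTCA were found in 0 of the 7 windows. Of all 32851 mouse windows, 13.6% held TATAAA, 32.8% CCACG, 7.81% TGANTCA and 2.01% TGACGTG. The share of G and C was 31.0% in Aspn, 37.7% in Omd, 42.3% in Ogn, 48.7% in Dpt and 63.7% in Bgn, against a median of 52.7% over all windows.

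Class I of the family holds decorin, biglycan and asporin. Dcn, which encodes decorin, the proteoglycan that coats collagen fibrils and binds TGF-beta, stood at 866.6, 1488, 1002 and 804.1 CPM in shXBP1 tumors 1 to 4, against 265.7, 275.8, 327.8 and 351.9 CPM in shNT tumors 1 to 4. The lowest shXBP1 tumor was above the highest shNT tumor, and shXBP1 tumor 2 was the highest of all. The means were 1040 ± 310 CPM in shXBP1 tumors and 305.3 ± 41.3 CPM in shNT tumors (SD, n = 4 each). This is a log2 fold change of 1.77 (SE 0.19), or 3.41-fold, with an edgeR adjusted p of 0.000128.

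Aspn encodes asporin, which has a run of aspartate residues, binds collagen and TGF-beta, and carries no sulfated chain. It stood at 74.62, 144.5, 74.2 and 49.46 CPM in shXBP1 tumors 1 to 4, against 15.31, 13.9, 22.9 and 21.69 CPM in shNT tumors 1 to 4. The groups did not overlap, and the spread in shXBP1 tumors again came from a high tumor 2 and a low tumor 4. Aspn averaged 85.7 ± 40.9 CPM in shXBP1 tumors and 18.45 ± 4.5 CPM in shNT tumors (SD, n = 4 each), a log2 fold change of 2.22 (SE 0.35), or 4.64-fold (edgeR adjusted p = 0.00313).

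Bgn encodes biglycan, the closest relative of decorin, which in soluble form is sensed by Toll-like receptors of mouse macrophages. It stood at 1495, 1121, 1177 and 1364 CPM in shXBP1 tumors 1 to 4, against 1091, 1414, 1506 and 1584 CPM in shNT tumors 1 to 4. The groups overlapped over most of their range. Bgn averaged 1289 ± 172 CPM in shXBP1 tumors and 1399 ± 217 CPM in shNT tumors (SD, n = 4 each). The log2 fold change was -0.12 (SE 0.13, edgeR adjusted p = 0.525), with a 95% interval of -0.39 to 0.16. That interval does not hold a change of 1 log2 unit in either direction, and it does not show that the levels were alike.

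**Figure D1:**
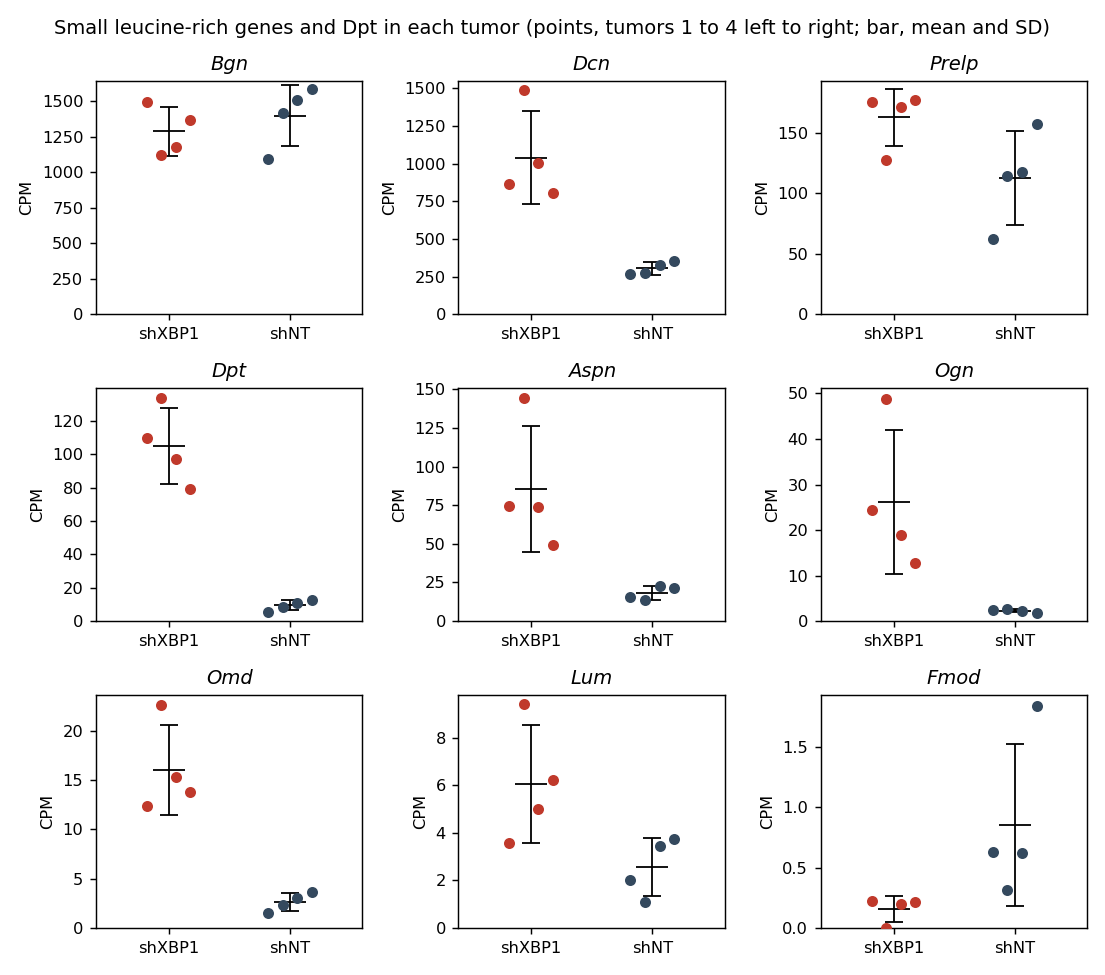
CPM of each of the 9 genes (vertical axis, linear, its own range per gene) in every tumor, shXBP1 left of shNT. Points are tumors 1 to 4 from left to right, and bars give the mean and SD of 4 tumors. The groups do not overlap for Dcn, Dpt, Aspn, Ogn, Omd and Fmod, and they overlap for Bgn, Prelp and Lum.

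Class II holds lumican, fibromodulin, PRELP and osteomodulin. Omd encodes osteomodulin, a keratan sulfate proteoglycan known from bone and tooth matrix. It stood at 12.39, 22.62, 15.32 and 13.76 CPM in shXBP1 tumors 1 to 4, against 1.543, 2.302, 3.049 and 3.678 CPM in shNT tumors 1 to 4. Every shXBP1 tumor was above every shNT tumor. Omd averaged 16.0 ± 4.56 CPM in shXBP1 tumors and 2.64 ± 0.924 CPM in shNT tumors (SD, n = 4 each), a log2 fold change of 2.60 (SE 0.27), or 6.06-fold (edgeR adjusted p = 6.4e-05). Bone markers were at or near 0, since all 4 genes looked at, Bglap, Ibsp, Sp7 and Dmp1, were below the filter, with summed levels of 0.0866 to 0.241 CPM in shXBP1 tumors and 0.0631 to 0.405 CPM in shNT tumors.

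Lum encodes lumican, which spaces collagen fibrils in cornea and skin. It stood at 3.567, 9.412, 4.993 and 6.237 CPM in shXBP1 tumors 1 to 4, against 2.016, 1.104, 3.43 and 3.74 CPM in shNT tumors 1 to 4. The groups overlapped, since shXBP1 tumor 1 was below shNT tumor 4. The log2 fold change was 1.23 (SE 0.39), or 2.35-fold, with an edgeR adjusted p of 0.034. The call was lost when shXBP1 tumor 2, 3 or 4 or shNT tumor 1 or 2 was left out, with log2 fold changes of 0.95 to 1.47 and adjusted p of 0.0248 to 0.0925 over all left-out tumors.

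Prelp encodes a proline-, arginine- and leucine-rich protein that links basement membranes to collagen. It stood at 175.5, 127.5, 171 and 176.7 CPM in shXBP1 tumors 1 to 4, against 62.05, 114.2, 117 and 157.2 CPM in shNT tumors 1 to 4. Of the shXBP1 tumors, tumor 2 was below shNT tumor 4. The log2 fold change was 0.53 (SE 0.25, edgeR adjusted p = 0.15), with a 95% interval of -0.04 to 1.11. Without shNT tumor 4 it was 0.73 (adjusted p = 0.0411), and DESeq2 gave 0.53 with an adjusted p of 0.0389. The authors' deposited table gives Prelp a log2 fold change of 0.50 with an adjusted p of 0.0336. Prelp shares 350 exonic bases with the antisense gene Gm15851, and reads of the pair cannot be told apart if strand was not used.

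Fmod encodes fibromodulin, a collagen-binding protein of tendon that guides cross-linking of the fibrils. It had 7, 0, 7 and 8 counts in shXBP1 tumors 1 to 4, against 20, 10, 18 and 59 counts in shNT tumors 1 to 4. In shXBP1 tumor 2 the 0 counts allow a level of up to 0.0946 CPM, by counting error alone. The groups did not overlap, but shNT tumor 4 held most of the shNT counts, and Fmod passed the filter on low counts through the shNT tumors alone. The means were 0.16 ± 0.107 CPM in shXBP1 tumors and 0.852 ± 0.674 CPM in shNT tumors (SD, n = 4 each), a log2 fold change of -2.37 (SE 0.71), or 5.17-fold lower (edgeR adjusted p = 0.0237). Without shNT tumor 4 the log2 fold change was -1.67 and the call was lost (adjusted p = 0.108), as it was without shXBP1 tumor 1 (-2.55, adjusted p = 0.0514) or tumor 3 (-2.50, adjusted p = 0.0534).

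Ogn, of class III, encodes osteoglycin, also called mimecan, a small protein that takes part in collagen fibril growth. It stood at 24.4, 48.89, 18.87 and 12.82 CPM in shXBP1 tumors 1 to 4, against 2.394, 2.649, 2.286 and 1.839 CPM in shNT tumors 1 to 4. The shNT tumors were close together, while the shXBP1 tumors spread over a 3.81-fold range, highest in tumor 2 and lowest in tumor 4. Ogn averaged 26.25 ± 15.8 CPM in shXBP1 tumors and 2.29 ± 0.338 CPM in shNT tumors (SD, n = 4 each), a log2 fold change of 3.51 (SE 0.42), or 11.4-fold (edgeR adjusted p = 0.00057). By log2 fold change it ranked 9 among the 14907 genes tested, counted from the highest.

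Dpt encodes dermatopontin, a tyrosine-rich protein that binds decorin, collagen and fibronectin, and in mouse tissues its RNA marks a widespread class of fibroblasts. It stood at 109.5, 133.3, 97.11 and 79.15 CPM in shXBP1 tumors 1 to 4, against 5.575, 8.513, 11.12 and 12.47 CPM in shNT tumors 1 to 4. The groups lay far apart, with the lowest shXBP1 tumor well above the highest shNT tumor. Dpt averaged 104.8 ± 22.7 CPM in shXBP1 tumors and 9.42 ± 3.04 CPM in shNT tumors (SD, n = 4 each), a log2 fold change of 3.48 (SE 0.26), or 11.1-fold (edgeR adjusted p = 4.28e-05). It ranked 10 by log2 fold change, next to Ogn. In the authors' deposited table the log2 fold changes were 3.23 for Dpt, 2.65 for Ogn, 2.33 for Omd, 1.80 for Aspn, 1.69 for Dcn, 1.0 for Lum and -0.11 for Bgn, and Fmod has no value there.

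**Figure D2:**
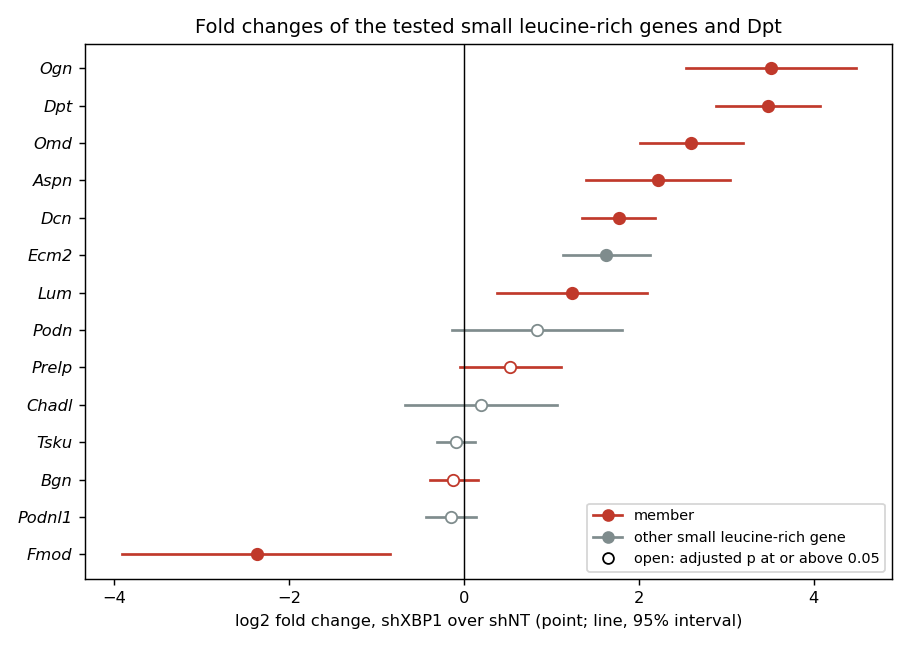
Log2 fold change, shXBP1 over shNT (horizontal axis), of the 9 genes and of the 5 other small leucine-rich genes that were tested, with 95% intervals from the edgeR fit. Filled points passed an adjusted p of 0.05. Ogn (3.51) and Dpt (3.48) are at the top, Bgn (-0.12) lies near 0 and Fmod (-2.37) is at the bottom.

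The tumors of a group were not alike across the 9 genes. Among shXBP1 tumors, tumor 2 was the highest for 6 genes (Dcn, Lum, Ogn, Aspn, Omd and Dpt) and the lowest for the other 3 (Fmod, Bgn and Prelp), and tumor 4 was the lowest for 4. Among shNT tumors, tumor 4 was the highest for 7 genes and tumor 1 the lowest for 5. Some skin markers below the filter were found in shXBP1 tumor 2 alone or nearly so. Krt1 and Lor, made in the outer epidermis, stood there at 0.7067 and 0.6746 CPM and at 0 in the other 7 tumors. Dsg1a stood there at 1.028 CPM, against at most 0.06234 CPM elsewhere (Krt1, Lor and Dsg1a were singled out after their values were seen). Krt5, the other skin marker below the filter, is not given by tumor here. The mean log2 CPM of all 6 skin markers ran from -1.67 to 1.28 over the shXBP1 tumors and from -1.39 to -0.81 over the shNT tumors. Of the tested skin markers, Krt14 stood at 48.03, 47.96, 48.6 and 52.81 CPM in shXBP1 tumors 1 to 4. Krt10 stood at 2.421, 2.184, 1.299 and 2.168 CPM in the same tumors. Whether skin was part of shXBP1 tumor 2 was not tested. Without shXBP1 tumor 2 the log2 fold changes were 1.55 for Dcn, 3.03 for Ogn, 1.84 for Aspn, 2.39 for Omd, 3.34 for Dpt and -1.98 for Fmod, all still called, while Lum at 0.95 was not (edgeR adjusted p = 0.0877).

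Per length, on the authors' FPKM scale (fragments scaled to gene length and library size), the 9 genes spanned levels from hardly detected to among the most abundant RNAs of the tumor. In shXBP1 tumors Dcn was first at 521 ± 140 FPKM, ahead of Bgn at 473 ± 72 FPKM, and their tumors overlapped. Dpt followed at 53.5 ± 9.69 FPKM, then Prelp at 40 ± 6.86 FPKM and Aspn at 32.4 ± 14.4 FPKM, each overlapping the next. Ogn at 8.92 ± 5.12 FPKM and Omd at 7.71 ± 2.09 FPKM also overlapped, while Lum at 2.18 ± 0.875 FPKM and Fmod at 0.0432 ± 0.029 FPKM stood apart below them (mean ± SD, n = 4).

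The order was different in shNT tumors. Bgn was first at 511 ± 79.7 FPKM, clear of Dcn at 153 ± 18.6 FPKM and of Prelp at 27.5 ± 9.38 FPKM. Aspn at 7.02 ± 1.59 FPKM and Dpt at 4.81 ± 1.5 FPKM overlapped, as did Omd at 1.24 ± 0.45, Lum at 0.915 ± 0.427 and Ogn at 0.785 ± 0.137 FPKM, each with the next. Fmod was last at 0.232 ± 0.185 FPKM (mean ± SD, n = 4). Dpt thus had rank 3 among the 9 genes in shXBP1 tumors and rank 5 in shNT tumors, at percentile 94.8 of all 25766 entries of the table by FPKM in shXBP1 tumors and 65.9 in shNT tumors. Dcn was at percentile 99.5 in shXBP1 tumors and 98.5 in shNT tumors.

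**Figure D3:**
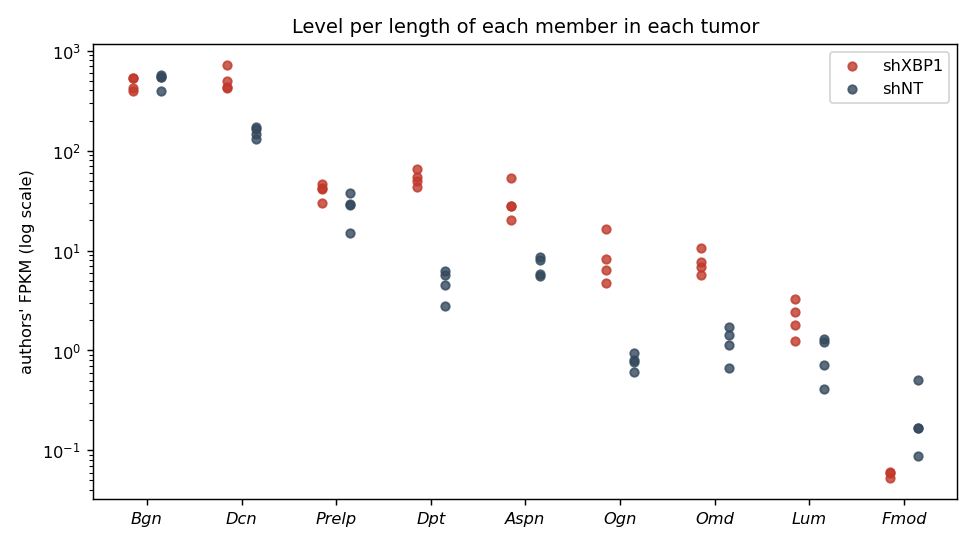
Authors' FPKM (vertical axis, log scale) of each of the 9 genes in every tumor, shXBP1 left of shNT, ordered by mean level over all tumors. Bgn tumors overlap between groups, Dcn reaches the Bgn range in shXBP1 tumors alone, and the 0 of Fmod in shXBP1 tumor 2 is not drawn on the log axis.

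The balance between the abundant class I proteoglycans moved with these levels. The FPKM of Dcn divided by that of Bgn was 0.798, 1.83, 1.17 and 0.811 in shXBP1 tumors 1 to 4, against 0.335, 0.268, 0.299 and 0.306 in shNT tumors 1 to 4. Decorin RNA exceeded biglycan RNA in shXBP1 tumors 2 and 3, and in every shNT tumor it was far below. Bgn made up 48.5%, 30.5%, 40.2% and 48.9% of the summed FPKM of the 9 genes in shXBP1 tumors 1 to 4, against 71.4%, 74.3%, 72.2% and 71.2% in shNT tumors 1 to 4. All 9 genes together took 0.278%, 0.304%, 0.255% and 0.26% of the counts in shXBP1 tumors, against 0.142%, 0.185%, 0.198% and 0.212% in shNT tumors.

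Most of the 9 genes lie in family clusters, given here on GRCm38. On chromosome 13, Ecm2 (49504810 to 49532789), Aspn (49544443 to 49567565), Omd (49582462 to 49592822) and Ogn (49608046 to 49624501) follow each other within 119.7 kb on the plus strand. Ecm2, a further leucine-rich matrix gene, stood at 3.567, 4.08, 4.011 and 3.051 CPM in shXBP1 tumors 1 to 4, against 1.165, 0.8828, 1.386 and 1.309 CPM in shNT tumors 1 to 4. It rose by 1.63 on the log2 scale (SE 0.23, edgeR adjusted p = 0.000338). In the order of the chromosome the log2 fold changes of these genes were 1.63, 2.22, 2.60 and 3.51, and the 95% intervals of neighbours overlapped. All of them lie within Cenpp, a centromere protein gene on the other strand that shares 7 exonic bases with Aspn and 0 with the others, and Cenpp itself had a log2 fold change of -0.02 (edgeR adjusted p = 0.948). Next to the cluster, Nol8 had -0.09 (adjusted p = 0.584), and Iars, a tRNA synthetase gene, fell by 0.58 on the log2 scale (adjusted p = 0.011).

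On chromosome 10 Dcn (97479609 to 97518143) and Lum (97565128 to 97572703) share a 202.8 kb cluster with Kera and Epyc, which were below the filter. Kera had 2, 0, 9 and 0 counts and Epyc 0, 10, 7 and 0 counts in shXBP1 tumors 1 to 4, and both had 0 counts in all shNT tumors. Btg1, the nearest tested neighbour, had a log2 fold change of 0.60 (edgeR adjusted p = 0.00073). On chromosome 1, Prelp (133910304 to 133921414, minus strand) and Fmod (134037254 to 134048277, plus strand) lie in a 151.1 kb cluster with Optc. The genes on either side of it, Btg2 with 1.72, Atp2b4 with 1.28 and Lax1 with 2.05 on the log2 scale, rose (edgeR adjusted p = 1.38e-05, 4.15e-05 and 0.000121). Dpt (chromosome 1, 164796644 to 164824266) and Bgn (chromosome X, 73483602 to 73495933) each lie away from other family genes. Beside Dpt, Nme7 had a log2 fold change of -0.14 (adjusted p = 0.317), Atp1b1 of 1.48 (0.00178) and Xcl1 of 1.99 (0.00065). Beside Bgn, Haus7 had -0.56 (0.000881) and Dusp9 -0.88 (0.00686).

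**Figure D4:**
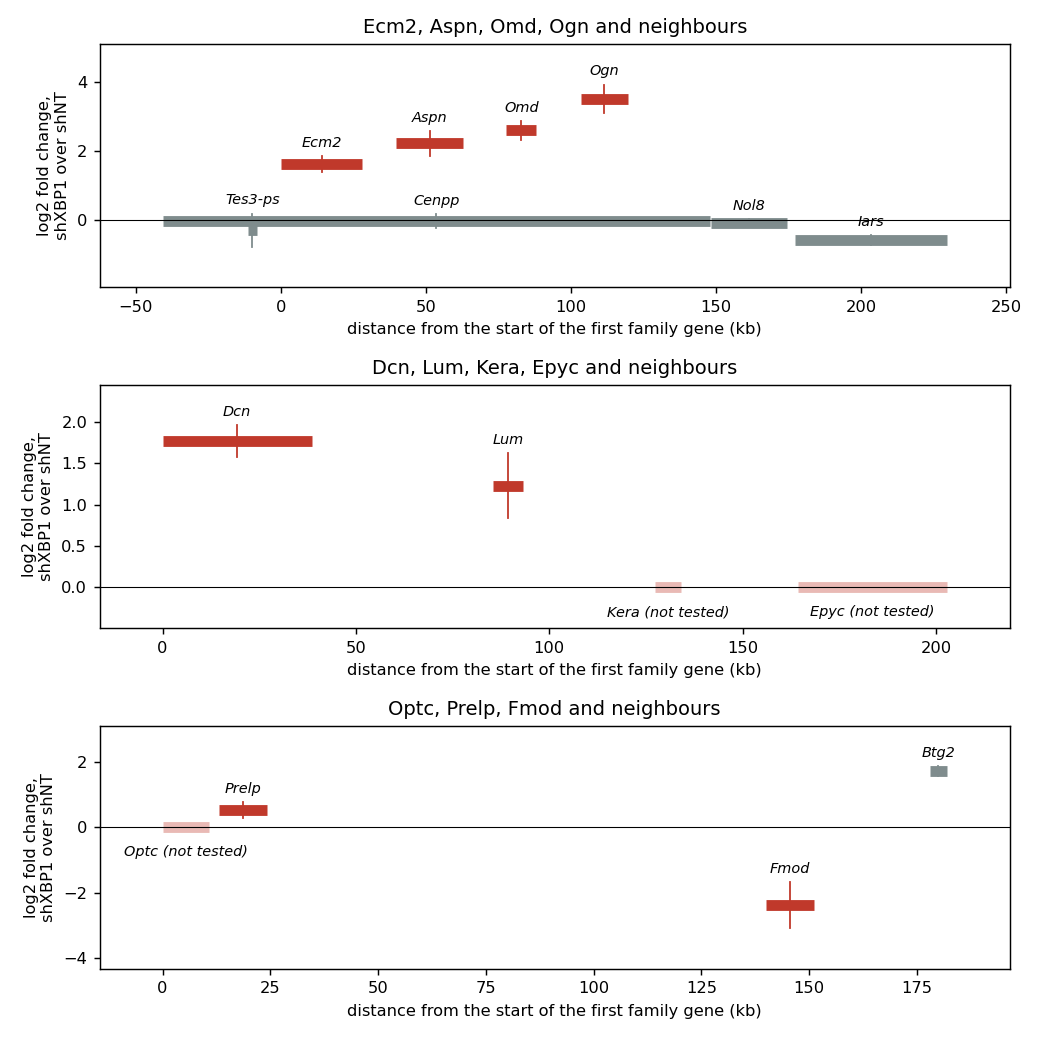
Log2 fold change, shXBP1 over shNT (vertical axis), of the family genes in 3 clusters (red) and of tested neighbouring genes (grey), against distance in kb from the start of the first family gene. Horizontal bars span each gene, thin vertical lines are ± 1 SE, and pale bars at 0 are family genes below the filter. Ecm2, Aspn, Omd and Ogn all lie above 0 while Cenpp, which spans them, lies at -0.02.

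Of the 11 other small leucine-rich genes looked at, 5 passed the filter and 1 of these, Ecm2, was called. Podn, which encodes podocan, had a log2 fold change of 0.84, Chadl 0.19, Tsku -0.09 and Podnl1 -0.15, and none of these passed the threshold. Chadl shares 1023 exonic bases with L3mbtl2 on the other strand. The remaining 6 were hardly detected: Chad had 9 counts in all shXBP1 tumors and 0 in all shNT tumors, Nyx 11 and 26, Optc 19 and 18, and Nepn had 0 counts in every tumor. The median over the 5 tested was 0.19.

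The enzymes that build the sulfated chains showed a mixed picture. Of 34 genes of chain synthesis 31 were tested, and 9 rose, 3 fell and 19 did not pass, with a median log2 fold change of 0.14. Beside this list and those that follow, 16.9% of all genes tested were called higher and 13.1% lower, with a median of -0.01. Xylt1, which starts the chain on the core protein, rose by 0.91 on the log2 scale (SE 0.16, edgeR adjusted p = 0.00141). Chst15, which adds sulfate to chondroitin chains, rose by 1.0 (adjusted p = 0.00191), and B4galt1, a galactosyltransferase, by 0.39 (adjusted p = 0.00239). Papss1, which makes the sulfate donor, fell by 0.48 (adjusted p = 0.0028). The others that fell were B3gnt7, by 0.59, and Chst1, by 0.38 (named after their values were seen). Only 1 gene fell when shXBP1 tumor 1, 2 or 3 or shNT tumor 2, 3 or 4 was left out.

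Of 17 collagens and other matrix proteins that these proteoglycans bind or lie beside, 9 rose and 8 did not pass, with a median of 0.42. Of the 8, DESeq2 called 2 lower and limma voom 1, and edgeR called 2 lower without shXBP1 tumor 4 and 1 lower without shNT tumor 1. Col3a1, the collagen of reticular fibrils, averaged 5162 ± 703 CPM in shXBP1 tumors and 1579 ± 413 CPM in shNT tumors (SD, n = 4 each), a log2 fold change of 1.71 (SE 0.19, edgeR adjusted p = 0.000132). Fn1, which encodes fibronectin, rose by 0.84 on the log2 scale, Tgfbi by 0.57 and Col5a2 by 0.53. The genes of the main fibril collagen were not called. Col1a1 had 147.5 ± 50.7 CPM in shXBP1 tumors and 142.4 ± 37.7 CPM in shNT tumors (log2 fold change 0.05, edgeR adjusted p = 0.911). Col1a2 had 398.6 ± 33.7 CPM in shXBP1 tumors and 478.5 ± 53.7 CPM in shNT tumors (-0.26, edgeR adjusted p = 0.0606). Col12a1 was not called either, at -0.97 (edgeR adjusted p = 0.058, named after its value was seen). In the authors' deposited DESeq2 values both fell at an adjusted p below 0.05, with -0.25 for Col1a2 (adjusted p = 0.037) and -0.77 for Col12a1 (adjusted p = 0.0346).

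Of 22 proteases, enhancers and inhibitors that act on this matrix, 19 were tested, and 8 rose, 2 fell and 9 did not pass, with a median of 0.39. Adamts1 and Adamts5, which cleave large proteoglycans, rose by 0.62 and 0.95 on the log2 scale, and Mmp14, a membrane-bound collagenase, by 0.51. Adamts8, of the same family, fell by 2.72 (SE 0.29, edgeR adjusted p = 4.97e-05), to 0.3676 ± 0.0558 CPM in shXBP1 tumors against 2.432 ± 0.303 CPM in shNT tumors (SD, n = 4 each). The other that fell, Mmp13, by 0.62 (adjusted p = 0.0419, named after its value was seen), was close to the threshold. The count of 2 was 1 when shXBP1 tumor 1, 2 or 3 or shNT tumor 1 or 4 was left out.

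Of 27 receptors and growth factors through which these proteoglycans are known to act, 25 were tested, and 9 rose, 1 fell and 15 did not pass, with a median of 0.18. Several of them take part in the sensing of soluble biglycan by mouse macrophages. Of these, Cd14 rose by 1.12 on the log2 scale, Tlr2 by 1.24, Myd88 by 0.66 and Nlrp3 by 1.02 (edgeR adjusted p between 2.67e-05 and 0.000203). P2rx7, a receptor of the same sensing, had a log2 fold change of -0.07 (edgeR adjusted p = 0.489) and Cd44 one of -0.17 (adjusted p = 0.125). Tlr4 and P2rx4 of the same list rose, by 0.45 (edgeR adjusted p = 0.00453) and 0.70 (adjusted p = 0.000354). P2rx7, Cd44, Tlr4 and P2rx4 were named after their values were seen. Leukocyte markers moved with the genes that rose: 5 of 5 rose, with a summed level of 770 to 1260 CPM in shXBP1 tumors and 410 to 532 CPM in shNT tumors. The part of leukocytes in these changes was not tested. The member that fell was Bmp2, by 0.49 (adjusted p = 0.0233, named after its value was seen), and its call was lost when shXBP1 tumor 1, 2 or 3 or shNT tumor 1 or 2 was left out.

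Fibroblast markers changed in part. Of 16 fibroblast genes 15 were tested, and 8 rose and 7 did not pass, with a median of 0.55. Their summed level was 6810 to 8400 CPM in shXBP1 tumors and 2610 to 4130 CPM in shNT tumors, of which Col3a1 took 4348 to 6023 CPM in shXBP1 tumors and 989 to 1949 CPM in shNT tumors. Pdgfra, a receptor that defines fibroblasts, averaged 118.9 ± 20.6 CPM in shXBP1 tumors and 81.4 ± 5.29 CPM in shNT tumors (SD, n = 4 each; log2 fold change 0.55, edgeR adjusted p = 0.00313). Pi16, which marks a fibroblast class in mouse tissues, rose by 1.67 on the log2 scale, Thy1 by 1.42 and Pdpn by 0.80. Of the 7 that did not pass, Col15a1 had a log2 fold change of -0.59 (edgeR adjusted p = 0.0719), Mfap5 -0.41, Col1a2 -0.26 and Lox -0.11, while Fap had 0.60, Col5a1 0.28 and Col1a1 0.05 (Col15a1, Mfap5, Lox, Fap and Col5a1 named after their values were seen). The authors' deposited table gives Col15a1 a log2 fold change of -0.53 with an adjusted p of 0.0302, and Col1a2 -0.25 with 0.037.

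Among the other cell types, endothelial markers rose in 4 of 7 genes (summed 106 to 117 CPM in shXBP1 tumors, 54.7 to 65.6 CPM in shNT tumors). Of 10 pericyte and smooth muscle genes Acta2 rose and Tagln fell (summed 254 to 278 CPM in shXBP1 tumors, 197 to 203 CPM in shNT tumors). Acta2 took 114.9 to 134.8 CPM of this sum in shXBP1 tumors and 39.03 to 49.33 CPM in shNT tumors. Of 7 skeletal muscle genes Mb rose (summed 21.1 to 63.9 CPM in shXBP1 tumors, 13.5 to 42.7 CPM in shNT tumors). Of 3 tested adipocyte genes out of 7 Fabp4 rose (summed 23.1 to 31.3 CPM in shXBP1 tumors, 11.2 to 17.0 CPM in shNT tumors). Fabp4 took 22.36 to 28.4 CPM of the adipocyte sum in shXBP1 tumors and 10.37 to 15.69 CPM in shNT tumors. Plin1 had a log2 fold change of -1.86 and Cfd one of 1.70, and neither passed. Of 6 keratinocyte genes 2 were tested and Krt14 fell (summed 49.9 to 55.6 CPM in shXBP1 tumors, 148 to 210 CPM in shNT tumors). Krt14 took 47.96 to 52.81 CPM of this sum in shXBP1 tumors and 146.6 to 207.7 CPM in shNT tumors. Krt10, the other tested, had a log2 fold change of 0.09 (edgeR adjusted p = 0.835). Of 6 tendon and cartilage genes 3 were tested and did not pass (summed 14.0 to 18.8 CPM in shXBP1 tumors, 16.7 to 18.3 CPM in shNT tumors), with Acan at 0 in every tumor. The part of these cell types in the results was not tested. For the labelled colon adenocarcinoma cells, Krt8 and Krt18 were below the filter, Epcam averaged 0.4644 CPM in shXBP1 tumors and 0.1465 CPM in shNT tumors, Krt19 averaged 0.1698 CPM in shXBP1 tumors and 0.5634 CPM in shNT tumors, and Cdh1 averaged 8.303 CPM in shXBP1 tumors and 5.932 CPM in shNT tumors, none of which passed the test.

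Each of the 9 genes was then set against 5 fibroblast genes, Pdgfra, Pdgfrb, Col1a1, Col1a2 and Col3a1, as its log2 CPM minus their mean log2 CPM. That mean was 8.33, 8.07, 8.14 and 8.46 in shXBP1 tumors 1 to 4, against 7.33, 7.68, 7.8 and 7.95 in shNT tumors 1 to 4. Dpt lay at -1.55, -1.01, -1.54 and -2.15 in shXBP1 tumors, against -4.83, -4.58, -4.31 and -4.3 in shNT tumors. On this scale too the groups were far apart, by 2.94 log2 units. Ogn was higher by 2.75, Omd by 2.04, Aspn by 1.57 and Dcn by 1.17 log2 units, again with no overlap between groups. For each of these 5 genes the two-sided exact permutation test gave p = 0.0286, the smallest that 70 splits of 4 against 4 tumors allow, with 9 ratios tested. Among all 14907 genes, 50.8% had no overlap on this scale, and 2.31% had shXBP1 tumors wholly above shNT tumors.

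Prelp and Lum did not separate the groups on this scale. Prelp differed by 0.03 log2 units (exact permutation p = 0.914) and Lum by 0.71 (exact permutation p = 0.229). Bgn lay at 2.22, 2.06, 2.06 and 1.96 in shXBP1 tumors, against 2.76, 2.79, 2.76 and 2.68 in shNT tumors, lower by 0.67 log2 units (-0.67, exact permutation p = 0.0286), and Fmod differed by -2.57 (exact permutation p = 0.0286). Lying wholly below is common here, since 48.5% of all genes did so, so nothing is read from it for Bgn and Fmod. Within the 5 fibroblast genes the log2 fold changes ran from -0.26 for Col1a2 to 1.71 for Col3a1. Which cells of the tumor made these 5 RNAs was not tested, so the ratio is not a level per fibroblast.

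**Figure D5:**
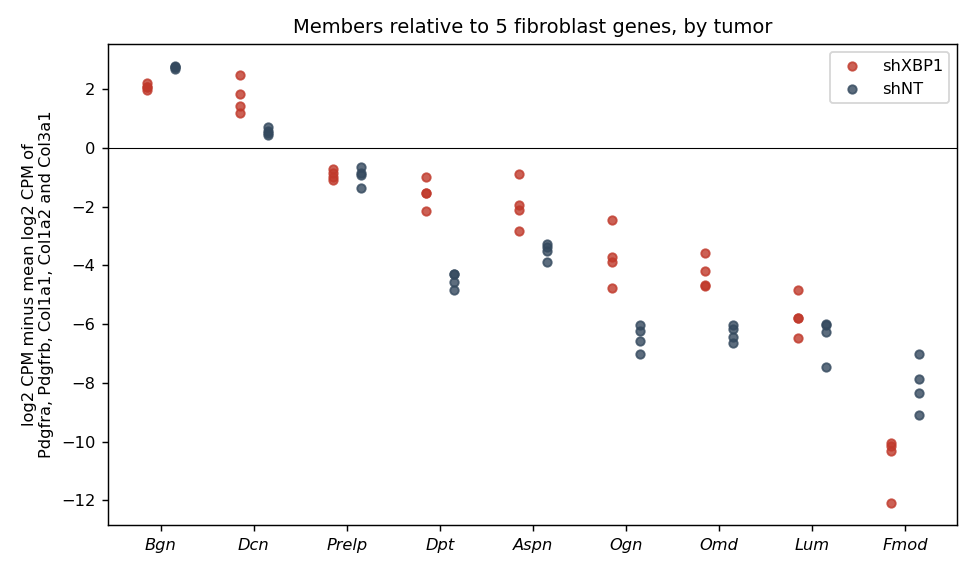
Log2 CPM of each of the 9 genes minus the mean log2 CPM of 5 fibroblast genes (vertical axis, log2 units) in every tumor, shXBP1 left of shNT. Dcn, Dpt, Aspn, Ogn and Omd are higher in all 4 shXBP1 tumors, Prelp overlaps between groups and Bgn is lower by 0.67.

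Likeness between genes was measured as the mean absolute difference of log2 CPM, each gene centred on its own mean over the 8 tumors, over 13303 genes of at least 1 CPM. The genes nearest to Ogn were Slpi (0.28), a secreted protease inhibitor, C4b (0.32), a complement component, F3 (0.37), the tissue factor gene, Fpr2 (0.42) and Nos2 (0.45). Dpt was the nearest of the other family genes to Ogn, at rank 6 with 0.46, and Omd ranked 17 and Aspn 32. Seen from Aspn, Dcn ranked 31 and Omd 55, at 0.25 and 0.27. Nearest to Bgn, whose level varied little, were Rgp1, Tmem132a, Trim8 and Rela at 0.05 and Ciz1 at 0.06. Nearest to Fmod were Rhpn2 (0.48), Pkp1 (0.54), a locus the authors' table lists as new (0.55), Scd2 (0.56) and Sc5d (0.57). Since all these values come from the same 8 tumors, they describe a shared pattern over those tumors and libraries only.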

How the data were processed

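RNA-seq of 8 whole tumors was read from 1 table, and the label's genotype set each sample's group. The counts per gene were deposited by the authors without normalization, per the file headers. The FPKM values are the authors' own, and for some genes they are not a fixed scaling of these counts. The authors' log2 fold changes and adjusted p came from DESeq2, per the file headers, and cover 13307 genes. The column name reads shNT against shXBP1, but all 2579 genes past 0.5 in size have the sign of shXBP1 minus shNT in the counts. Per the submitters' processing notes the genome build is GRCm38, and coordinates are from GENCODE M21. The sources used here do not give the aligner, the counter or the strand setting.

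The filter on low counts was edgeR's filterByExpr, which left 14907 of 25766 entries. TMM factors lay between 0.980 and 1.04. Groups were compared with edgeR's quasi-likelihood test (version 4.0.16, R 4.3.3, robust, no covariate), two-sided. P-values were adjusted by Benjamini-Hochberg over the whole table, and calls were made below 0.05. Means are given ± SD over 4 tumors. The 95% intervals use the t distribution on edgeR's degrees of freedom. Ratios used log2 CPM with a prior count of 2 and a two-sided exact permutation test (SciPy 1.17.1). FPKM was not tested. A count of 0 was given a floor of 3 counts per library, for counting error only. The procedure was tested on simulated counts. Alternatives were DESeq2 (1.42.0), limma voom (3.58.1), other size factors, filters and thresholds, the tumor number as a block, non-robust estimation, other fibroblast genes or a prior count of 0.5 for the ratios, and leaving out each tumor. Between tumors of a group, the chi-square per degree of freedom was at least 16.45, more than counting error gives for 1 library read again. It cannot show that the samples came from separate tumors or mice.

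The 9 genes and all lists were chosen with earlier results of these data known. Named are the 9 genes, Xbp1, the other small leucine-rich genes, up to 4 genes of each other list with the smallest p, the 5 genes nearest in pattern to Bgn, Ogn and Fmod, and the protein-coding neighbours of each locus. Outside this rule, the 5 fibroblast genes of the ratios, genes below the filter and genes that overlap a family gene are also named. Other genes named outside the rule are marked. List symbols Ccn2, Ccn4 and Ccn5 were read under the older names Ctgf, Wisp1 and Wisp2.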

Additional observations from a re-analysis of the deposited data

Results flagged for a closer look

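In each group of 4 tumors the highest and the lowest value of each of the 9 genes was compared with the other tumors of its group. Of the 18 groups examined, 2 held a tumor far from the rest, and chance alone gives about 1 in 20. Both times it was shXBP1 tumor 2, as the lowest of its group. Fmod stood there at 0 CPM, against 0.202 to 0.2229 CPM in the other shXBP1 tumors. Prelp stood there at 127.5 CPM, against 171 to 176.7 CPM in the other shXBP1 tumors. Without this tumor the log2 fold change of Fmod was -1.98 (edgeR adjusted p = 0.0415) and that of Prelp was 0.64 (edgeR adjusted p = 0.142).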

How the results depend on the processing

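The calls of Dcn, Ogn, Aspn, Omd and Dpt as higher held under every alternative run, and Bgn was not called under any. Ogn and Omd passed the filter of at least 10 CPM in 4 libraries through the shXBP1 tumors alone. That run therefore adds no support for their calls. With a tumor left out, log2 fold changes ran from 1.55 to 1.88 for Dcn, 3.03 to 3.75 for Ogn, 1.84 to 2.41 for Aspn, 2.39 to 2.80 for Omd, 3.30 to 3.64 for Dpt and -0.21 to -0.05 for Bgn. Lum (0.95 to 1.47) lost its call in 5 of these 8 fits, and also with no filter (1.24, adjusted p = 0.0551). Fmod (-2.65 to -1.67) lost it in 3, and Prelp (0.33 to 0.73) gained one in 1 of them and with DESeq2 (0.53, adjusted p = 0.0389). The genes called higher numbered 5 to 7 of the 9 over these fits, and those called lower 0 to 1. At an adjusted p of 0.01, or with at least 10 CPM in 4 libraries, which leaves Lum and Fmod out, 0 were lower. Against the receptors Pdgfra and Pdgfrb alone the ratio of Prelp was reversed, at -0.05. Ratios with a tumor left out have no call, since 3 against 4 tumors cannot go below 0.0571 in the exact test. Prelp crossed 0 there, from -0.11 to 0.13.

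Of all genes, 2517 were higher and 1958 lower. At an adjusted p of 0.01 they numbered 1644 and 879, and with a 2-fold minimum 1138 and 166. With a tumor left out, 2058 to 2904 were higher and 1303 to 2401 lower, the lowest without shNT tumor 3. Same-numbered tumors gave no sign of pairing, with correlations of -0.1406 to -0.0247 in their deviations from the group means. Tumors of different numbers had -0.0945 to 0.1668. These values cannot show that the samples were unpaired. With the number as a replicate block 1304 genes were lower and 2040 higher, and Lum had 1.24 (adjusted p = 0.0699). Depth limits Fmod and the genes with a few counts. The causes of these shifts were not tested.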
